A study of Mus musculus with 8 samples.

Results

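Neuropeptide precursor genes encode the proteins from which neurons cut their peptide transmitters. The 10 genes described here are *Npy*, *Sst*, *Tac1*, *Pomc*, *Pdyn*, *Penk*, *Cck*, *Gal*, *Trh* and *Cartpt*. They were chosen by symbol with earlier results of these data known, so their counts of calls beside those of all genes are descriptive. All 10 were found among the 54752 gene identifiers of the deposited count tables. RNA was sequenced from the brains of E15.5 wild-type C57BL/6 mouse fetuses, 1 library per brain. In the stress group, the dams had gone through chronic unpredictable mild stress (CUMS), a changing daily schedule of mild stressors, from E5.5 to E14.5. The dams of the control group stayed in their home cages. Each group held 4 brains, from 2 females and 2 males, named F36, F37, M30 and M31 in the control group and F34, F35, M28 and M29 in the stress group. The 4 brains of a group were littermates from 1 dam, which means that condition and litter cannot be told apart, and the p-values below measure the spread among littermates only.

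A neuropeptide is made as part of a larger precursor protein, which enters dense-core granules and is cut there by proprotein convertases and carboxypeptidases. The finished peptides are released beside a fast transmitter and act on G protein-coupled receptors. In the fetal forebrain, *Sst* and *Npy* are known for marking cells of the interneuron lineage, *Penk*, *Pdyn* and *Tac1* for marking young projection neurons of the striatum, and *Pomc*, *Trh*, *Gal* and *Cartpt* for their expression in the hypothalamus.

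The total was between 25320109 and 29105710 counts per brain, and the 10 genes together took between 0.0123% and 0.0150% of it. Of all genes, 17865 passed the filter on low counts, with all 10 precursor genes among them. The summed level of 12 pan-neuronal genes, in CPM (counts scaled to a common library size, with the TMM method of edgeR), was 7933 to 8078 in the control brains and 7659 to 7966 in the stressed brains. The brains differed in how much caudal hindbrain RNA they held. *Hoxb8*, a gene of the posterior hindbrain and spinal cord, had 312 counts in F36 and 374 in F35, against 0 to 10 in the other 6 brains. *Hoxa5* had 35 counts in F34 and 12 in M28, against 354 to 1098 in the others. The study's library table lists the tissue of all 8 as "half_whole_brain". How far the dissection varied was not tested, and values of the precursors with and without these brains are given below.

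The 10 genes lie on 8 chromosomes (mm10, spans of the GENCODE genes in the count tables). The genes of the called results below are *Sst* at chr16:23889573-23890958 on the minus strand, *Npy* at chr6:49822710-49829507 on the plus strand, *Penk* at chr4:4133531-4138819 on the minus strand and *Pdyn* at chr2:129686565-129699844 on the minus strand. The other members are *Tac1* (chr6:7554879-7565834, plus), *Cck* (chr9:121489824-121495694, minus), *Gal* (chr19:3409919-3414472, minus), *Trh* (chr6:92242061-92244650, minus), *Pomc* (chr12:3954951-3960642, plus) and *Cartpt* (chr13:99898489-99901091, minus). Counts were taken over the exons of each gene. *Penk* was the one member whose exons share bases with another gene, 233 bases or 14.3% of its exon length, with *A830012C17Rik* on the opposite strand. The counting options listed in the paper hold no strand setting and none for reads shared by several genes, so reads from these bases cannot be assigned to one gene. Such reads may be missing from the *Penk* count, while its TPM below divides by the full exon length. How many were missing was not tested. *A830012C17Rik* had 0 to 5 counts per brain, and *Penk* 308 to 459.

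Promoter sequence was at hand for 9 of the 10 genes, from RefSeq (GRCm38.p6, 250 bases before to 50 bases after each annotated start, with a pair of windows for *Pdyn*). *Penk* had no entry. The palindrome TGACGTCA, the cAMP response element through which CREB acts, was searched because *Sst* is a classical gene with this element. It lay in the windows of *Sst* and *Cartpt*, and in 1.79% of 32851 RefSeq promoters. Its shorter core TGACG, searched on both strands and contained in the palindrome, lay in 6 members (*Sst*, *Tac1*, *Cck*, *Gal*, *Trh* and *Cartpt*) and in 20.8% of all promoters. Stretches of 30 bases around the palindrome or the core upstream of the start are shown 5′ to 3′ on the strand of the gene, with the match in capitals. *Tac1* held 2 upstream cores, and the one nearer to the start is shown. In *Sst* the match was 48 to 41 bases before the RefSeq start, and in *Cartpt* 112 to 105 bases before it.
Sst, chr16:23890875-23890904, minus: cgcctccttggcTGACGTCAgagagagagt
Cartpt, chr13:99900778-99900807, minus: cccggcgggcatTGACGTCAaacggcagcg
Tac1, chr6:7555006-7555035, plus: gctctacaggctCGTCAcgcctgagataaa
Cck, chr9:121495724-121495753, minus: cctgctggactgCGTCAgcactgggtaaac
Trh, chr6:92244729-92244758, minus: ccccggctctgcCGTCAgcgcccctgcatt

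In *Tac1*, *Cck* and *Trh* the capitals read CGTCA, the core on the other strand. The E-box CACGTG lay in the windows of *Tac1* and *Cck* (7.15% of all promoters), and TATAAA in that of *Pomc* (13.6%). No member window held the AP-1 site TGACTCA (5.2% of promoters). These matches describe letters and not bound sites. The proximal stretches of *Npy* and *Pdyn*, 2 of the genes that fell after stress, held none of the letters searched and are shown for comparison, 100 bases up to the annotated start.
Npy, chr6:49822610-49822709, plus: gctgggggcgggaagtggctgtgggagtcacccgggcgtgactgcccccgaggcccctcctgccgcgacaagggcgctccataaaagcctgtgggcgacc
Pdyn, chr2:129699939-129700038, minus: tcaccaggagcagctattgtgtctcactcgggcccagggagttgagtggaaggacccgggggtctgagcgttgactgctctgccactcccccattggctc

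The level of each precursor in the E15.5 brain was first set per exon length, in TPM (counts divided by exon length and scaled to a common total). *Sst* stood highest, at 323 ± 23.0 TPM (SD, n = 8 brains) with a range of 293 to 349, above 97.8% of the genes tested. *Npy* followed at 124 ± 13.4 TPM (91.7%) and *Penk* at 32.7 ± 5.42 TPM (66.2%). The ranges over the 8 brains did not overlap between *Sst* and *Npy* or between *Npy* and *Penk*. The range of *Penk*, 24.71 to 39.40 TPM, began just above the highest *Tac1* value, 24.70 TPM. It overlapped the range of *Cck*, 18.72 to 30.86 TPM. *Tac1* (23.1 ± 1.18 TPM) and *Cck* (22.7 ± 4.17 TPM) could not be ordered, since their ranges overlapped and *Tac1* was the higher of both in 5 of the 8 brains. *Pdyn* (11.1 ± 1.58 TPM) lay below *Cck* in every brain. From *Pdyn* down, each gene's range overlapped that of the next, through *Gal* (9.38 ± 1.58), *Cartpt* (6.78 ± 1.55), *Trh* (5.94 ± 0.869) and *Pomc* (5.13 ± 0.768 TPM). The lowest genes rested on few reads, with 40 to 58 counts per brain for *Pomc*, 33 to 60 for *Gal*, 44 to 71 for *Trh* and 42 to 80 for *Cartpt*.

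**Figure D1:**
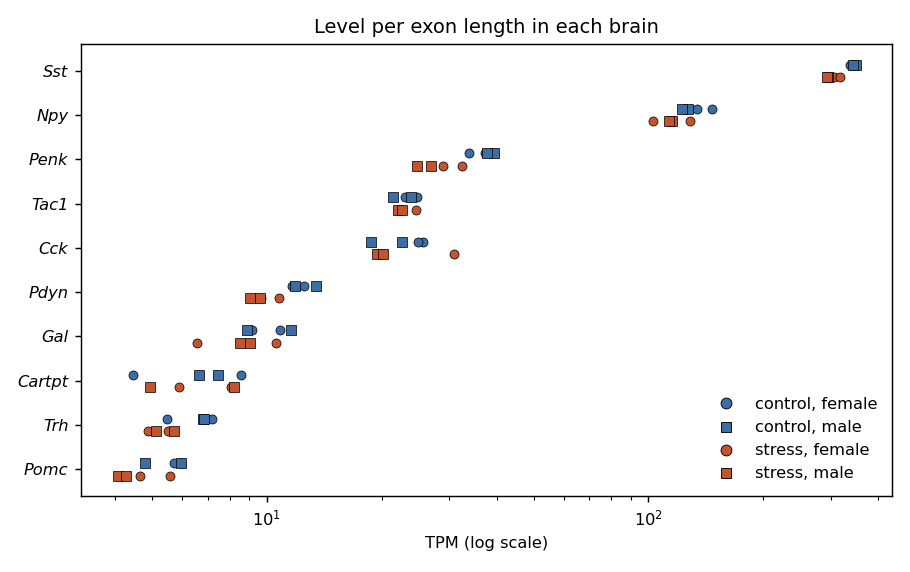
Level per exon length (TPM, logarithmic axis) of the 10 precursor genes in each of the 8 brains, with control brains drawn above stressed brains, circles for females and squares for males. Within each of the 8 brains, Sst, Npy and Penk lie in this order above the other genes, though the ranges of Penk and Cck overlap. The 5 genes from Pdyn to Pomc form a ladder of overlapping neighbours.

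After prenatal stress, 4 of the 10 precursor genes fell and none rose (edgeR's quasi-likelihood test on condition and sex, Benjamini-Hochberg adjustment over all 17865 genes, called at an adjusted p under 0.05). The genes that fell were the opioid precursors *Penk* and *Pdyn* and the interneuron peptides *Sst* and *Npy*. In all genes tested, 7.27% were called lower and 6.49% higher. The log2 fold change (Log2FC, stress against control) was below 0 for all 10 members, with a median of -0.21, against 49.4% of all genes below 0 and a median of 0.00. For *Tac1*, *Cck* and *Cartpt* the sign was not fixed, and all 3 were above 0 without F34 and M28. In 3 members, *Penk*, *Pdyn* and *Sst*, every stressed brain was below every control brain, which held for 8.22% of all genes. In bulk RNA, fewer cells of a type and less RNA per cell cannot be told apart, and this applies to each difference below.

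Among the opioid precursors, *Penk* encodes proenkephalin, the source of the enkephalins, and fell by 24.1%. Its level was 14.4, 15.9, 16.7 and 15.8 CPM in control F36, F37, M30 and M31, and 12.1, 13.6, 11.4 and 10.6 CPM in stress F34, F35, M28 and M29. The groups did not overlap, and F36 and F35 came nearest to each other. The Log2FC was -0.40 (SE 0.07, edgeR adjusted p = 0.000399), and the exact permutation test of the difference in mean CPM gave p = 0.0286 (two-sided), the smallest that 4 brains against 4 allow.

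*Pdyn* encodes prodynorphin, the source of the dynorphins, and fell by 21.1%. Its level was 9.43, 8.74, 8.85 and 9.98 CPM in control F36, F37, M30 and M31, and 7.97, 7.15, 6.76 and 7.32 CPM in stress F34, F35, M28 and M29. The highest stressed brain, F34, was below the lowest control brain, F37. The Log2FC was -0.34 (SE 0.08, edgeR adjusted p = 0.00430, exact permutation p = 0.0286, two-sided). *Pomc* encodes pro-opiomelanocortin, the source of beta-endorphin, ACTH and the melanocortins. It was at 1.91 ± 0.202 CPM in the control brains and 1.59 ± 0.212 CPM in the stressed brains (SD, n = 4 each), with overlapping groups, and was not called (Log2FC -0.27, SE 0.15, edgeR adjusted p = 0.265). The spread of *Pomc* between brains of a group, 10.5% and 13.4% of the mean, was no larger than the 14.3% that counting error alone gives at its depth.

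The interneuron peptides had smaller differences than the called opioid precursors. *Sst*, the precursor of somatostatin, an inhibitory peptide, stood at 64.7, 63.2, 65.0 and 63.4 CPM in control F36, F37, M30 and M31, and at 56.5, 58.9, 55.2 and 55.7 CPM in stress F34, F35, M28 and M29. The SD was 1.41% of the mean in the control brains and 2.84% in the stressed brains, and the groups did not overlap. Counting error alone gives 2.44% at this depth, so the control spread was smaller than counting error. *Sst* fell by 11.8% (Log2FC -0.18, SE 0.03, edgeR adjusted p = 0.000677, exact permutation p = 0.0286, two-sided).

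*Npy* encodes neuropeptide Y, a peptide of interneurons and of hypothalamic feeding neurons. It was at 21.6, 19.8, 18.5 and 17.8 CPM in control F36, F37, M30 and M31, and at 14.9, 18.7, 17.0 and 16.9 CPM in stress F34, F35, M28 and M29. The groups overlapped, with F35 above M30 and M31. *Npy* fell by 13.0% in the fit across all genes (Log2FC -0.20, SE 0.06, edgeR adjusted p = 0.0356), while the exact permutation test gave p = 0.0857 (two-sided). The call was lost with DESeq2 (adjusted p = 0.0861, in a test that called 5.1% of all genes lower), without sex in the model (edgeR adjusted p = 0.0642), and when any of F36, F37, M30 or F34 was left out. Without F34 the Log2FC of *Npy* was -0.12 (edgeR adjusted p = 0.204), and without F36 it was -0.16 (edgeR adjusted p = 0.140).

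The other 5 precursors were not called, and their intervals differ in what they allow. *Tac1* encodes preprotachykinin, the source of substance P, and its mean was 20.5 ± 1.33 CPM in control brains and 20.2 ± 0.948 CPM after stress (SD, n = 4 each). Its Log2FC of -0.02 had an interval of 2 SE from -0.13 to 0.09, so a change of the size seen for *Penk* lies outside it. *Trh*, the precursor of thyrotropin-releasing hormone, was at 2.35 ± 0.264 and 1.90 ± 0.135 CPM (Log2FC -0.30, unadjusted p = 0.0409, edgeR adjusted p = 0.164). *Gal*, the galanin precursor, ran from 1.63 to 2.11 CPM in control brains and from 1.20 to 1.94 CPM in stressed brains (Log2FC -0.22, interval of 2 SE from -0.56 to 0.11). The lowest value of *Gal* was that of F34, and its Log2FC was -0.09 without F34, -0.04 without F34 and M28, and -0.07 with the hindbrain score described below in the model. At 33 to 71 counts per brain, a difference of the size of that of *Sst* was not detectable in *Trh* or *Gal*.

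*Cck* and *Cartpt* had the widest spread within groups. *Cck* encodes cholecystokinin, a peptide of cortical and hippocampal neurons, and was at 8.70, 8.43, 7.62 and 6.26 CPM in control F36, F37, M30 and M31, and at 6.55, 10.3, 6.59 and 6.94 CPM in stress F34, F35, M28 and M29. The 3 other stressed brains lay together and F35 alone lay above all controls. *Cartpt*, the precursor of the CART peptides, was at 2.84, 1.48, 2.47 and 2.18 CPM in the control brains in the same order, and at 1.92, 2.65, 1.64 and 2.76 CPM in the stressed brains. Both groups of *Cartpt* covered nearly the same range. The Log2FC was -0.03 for *Cck* (SE 0.10, edgeR adjusted p = 0.893) and -0.00082 for *Cartpt* (SE 0.18, edgeR adjusted p = 0.998).

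**Figure D2:**
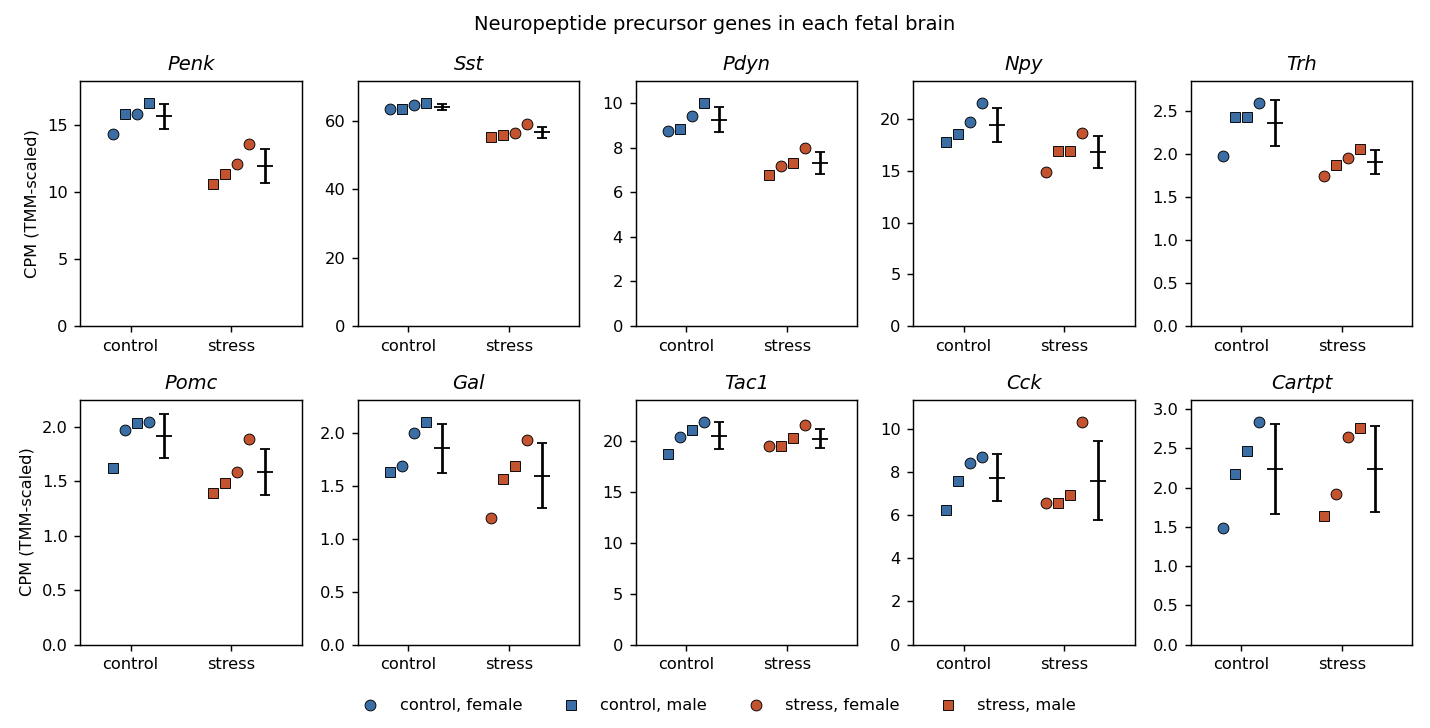
Level of each precursor gene (CPM on TMM-scaled library sizes, linear axes from 0) in each brain, by group, with circles for females and squares for males and the mean with SD beside each group (n = 4). In Penk, Sst and Pdyn all 4 stressed brains lie below all 4 control brains, in Npy the groups overlap, and in Cck stress F35 stands at 10.3 CPM above the other 7 brains.

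The precursors were also compared on a scale set by neuronal genes, because many genes of neurons were lower in the stressed brains. Of 12 pan-neuronal genes, 6 were called lower and 1 higher (median Log2FC -0.08), among them *Gap43*, a growth cone protein (-0.12), and *Rbfox3*, the splicing factor known as NeuN (-0.13). Most genes of dividing cells were higher, with 7 of 10 progenitor genes called (median Log2FC 0.13, for example *Top2a* at 0.24) and 6 of 8 intermediate progenitor genes (median Log2FC 0.18, for example *Eomes* at 0.25), and none called lower in either list. The 3 uncalled progenitor genes, *Hes1* (-0.08), *Hes5* (-0.10) and *Fabp7* (-0.02), were below 0, as was *Neurod1* (-0.01) in the second list. When the mean log2 CPM of the 12 pan-neuronal genes was subtracted in each brain, *Penk* was still lower by 0.34 log2 units (control -4.81 ± 0.10, stress -5.14 ± 0.14), *Pdyn* by 0.28 (control -5.57 ± 0.08, stress -5.84 ± 0.13) and *Sst* by 0.12 (control -2.78 ± 0.02, stress -2.90 ± 0.04). The groups of these 3 genes did not overlap (exact permutation p = 0.0286 each, two-sided), against 2.98% of all genes that were lower without overlap on this scale. The subtracted mean itself differed by only -0.06 log2 units between the groups. This comparison used the same brains, so it is not independent of the CPM differences. *Npy* was lower by 0.14 with overlapping groups (exact permutation p = 0.143, two-sided). The part of neuronal content in the CPM differences was not tested further.

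Marker lists of the neurons in which the called precursors are made were read beside them. Of 19 genes of GABAergic neurons, 3 were called lower and 3 higher (median Log2FC 0.01), with *Calb2* (-0.23) and *Npas1* (-0.36), both expressed by subsets of interneurons, lower and *Sox6*, a factor of interneuron maturation, higher (0.14). The summed level of this list was 1242 to 1256 CPM in the control brains and 1239 to 1266 CPM in the stressed brains. Of 14 striatal genes, 4 were called lower and 1 higher (median Log2FC -0.04). The lower ones included *Drd2*, the D2 dopamine receptor of the striatal neurons that also make enkephalin (10.7 ± 0.302 CPM in controls, 8.33 ± 0.658 CPM after stress, Log2FC -0.37, SE 0.07, edgeR adjusted p = 0.00100). *Ebf1*, a factor of striatonigral neurons, was higher (0.21). The striatal sum was 887 to 901 CPM in the control brains and 899 to 933 CPM in the stressed brains.

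For the hypothalamus, 7 of 28 marker genes were called higher and 1 lower (median Log2FC 0.08), among them the transcription factors *Lhx9* (0.19), *Prdm12* (0.36) and *Lhx1* (0.21). The summed level of the 29 genes listed, with *Rax* below the filter, was 1292 to 1313 CPM in the control brains. It was 1345 to 1390 CPM in the stressed brains and did not overlap, while the hypothalamic peptides *Pomc*, *Trh*, *Gal* and *Cartpt* were not called. Of 16 marker genes of the pituitary, another source of *Pomc*, 7 passed the filter on low counts and none was called. The summed level of all 16 was 32.0 to 37.1 CPM in the control brains and 32.2 to 38.3 CPM in the stressed brains. Most of this sum came from *Pax7* (365 to 529 counts per brain), *Gata2* (213 to 284) and *Neurod4* (121 to 177). *Pax7* is also in the midbrain list below, so the sum is not a measure of pituitary tissue alone. Among the genes with few counts, *Pitx1* (Log2FC -0.74, edgeR adjusted p = 0.0837) and *Lhx3* (-0.30) were lower and *Tshb* (0.36) was higher, none of them called. The hormone genes *Gh*, *Prl* and *Fshb* had 0 counts in every brain, and *Tshb* had 10 to 21, *Lhx3* 15 to 25, *Pitx1* 8 to 26, *Lhb* 0 to 8 and *Tbx19*, a factor of the pituitary *Pomc* cells, 0 to 6 counts. The part of pituitary tissue in the *Pomc* level was not tested.

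The enzymes, granule proteins and receptors of the peptide pathway were described from lists written for this purpose. The lists held 40 further precursors, 14 processing enzymes and helpers, 16 granule proteins, 28 peptide receptors and 12 peptidases, and 80 of these genes passed the filter. Of the 80, 13 were called lower and 6 higher, together 23.8%, against 13.8% of all genes called in either direction. The 19 calls became 9 with DESeq2, or 11.2% against 9.3% of all genes in that test, and 10 without F34 and M28, or 12.3% against 9.2% of all genes.

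Of the 40 further precursor genes, 19 passed the filter on low counts, and 3 were called lower and 0 higher, with a median Log2FC of -0.22. *Adm*, the precursor of the vasodilator adrenomedullin, was at 0.994 ± 0.151 CPM in the control brains and 0.431 ± 0.179 CPM in the stressed brains (Log2FC -1.19, SE 0.27, edgeR adjusted p = 0.00342), from 8 to 31 counts per brain. *Nppc*, the precursor of C-type natriuretic peptide, was at 1.79 ± 0.493 and 1.12 ± 0.135 CPM (Log2FC -0.66, SE 0.19, edgeR adjusted p = 0.0176). *Avp*, the vasopressin precursor of hypothalamic neuroendocrine cells, was at 1.95 ± 0.356 and 1.33 ± 0.138 CPM (Log2FC -0.55, SE 0.17, edgeR adjusted p = 0.0297). None of the 3 genes had overlapping groups. The highest per length were *Nts*, the neurotensin precursor (43.0 TPM, Log2FC -0.02), and *Pnoc*, the nociceptin precursor and the opioid-like relative of *Penk* and *Pdyn* (27.2 TPM, Log2FC -0.01, edgeR adjusted p = 0.923).

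Of 13 processing genes tested, 2 were called lower and 1 higher (median Log2FC -0.03). *Pcsk1n*, which encodes proSAAS, an inhibitor of proprotein convertase 1, fell from 139 ± 6.60 to 123 ± 4.04 CPM (Log2FC -0.18, SE 0.03, edgeR adjusted p = 0.000655). *Furin*, the general convertase of the secretory pathway, fell (-0.18), and *Pam*, which amidates peptide ends, rose (0.09). *Cpe*, the carboxypeptidase that trims cut peptides and the highest of the list at 934 TPM, was not called (Log2FC -0.06, edgeR adjusted p = 0.145). Of 16 granule genes, 5 were called lower and 0 higher (median Log2FC -0.09). *Vgf*, a granule protein that is itself cut into peptides, fell from 22.1 ± 1.93 to 16.4 ± 0.379 CPM with no overlap (Log2FC -0.43, SE 0.06, edgeR adjusted p = 2.4e-05). The others were *Ptprn*, a granule membrane protein (-0.20), *Syt5*, a synaptotagmin (-0.12), *Chga*, chromogranin A (-0.10), and *Rab27b*, a granule transport GTPase (-0.22). The highest per length, *Syt4* (302 TPM, Log2FC -0.08) and *Scg3* (257 TPM, Log2FC 0.08), were not called.

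Of 20 receptor genes tested, 3 were called higher and 2 lower (median Log2FC -0.19). *Mc4r*, a receptor for the melanocortins made from *Pomc*, rose from 11.1 ± 0.664 to 14.6 ± 0.542 CPM with no overlap (Log2FC 0.39, SE 0.06, edgeR adjusted p = 0.000173). Receptors for somatostatin went both ways, with *Sstr2* (0.16) and *Sstr3* (0.42) higher and *Sstr1* (-0.28) lower. *Npy1r*, a receptor for neuropeptide Y, fell from 6.91 ± 0.754 to 5.13 ± 0.876 CPM (Log2FC -0.44, SE 0.10, edgeR adjusted p = 0.00435), with overlapping groups. Of 12 peptidases, *Lnpep* (0.12) and *Enpep* (0.64) were higher and *Ace*, the angiotensin-converting enzyme, was lower (-0.22), with a median Log2FC of -0.0023. The highest peptidases per length were *Nln* and *Thop1* (Log2FC -0.10 each), neither of them called.

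Both sexes were included, so the difference between them was tested as well. No precursor gene was called between females and males (0.0896% of all genes were) or for the interaction of sex and stress (0.0056%). At an unadjusted p under 0.05, *Cck* stood higher in females (log2 difference 0.31, SE 0.10, edgeR unadjusted p = 0.00644 and adjusted p = 0.709), against 5.91% of all genes at that level. *Penk* was lower by 0.56 log2 units (SE 0.09) after stress in the males and by 0.24 (SE 0.09) in the females. This difference of 0.32 (SE 0.13) had an unadjusted p of 0.0200 and an edgeR adjusted p of 0.689, against 6.31% of genes under 0.05. The Log2FC in females and males was -0.26 and -0.42 for *Pdyn*, -0.15 and -0.21 for *Sst*, and -0.30 and -0.10 for *Npy*, each from 2 brains against 2.

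**Figure D3:**
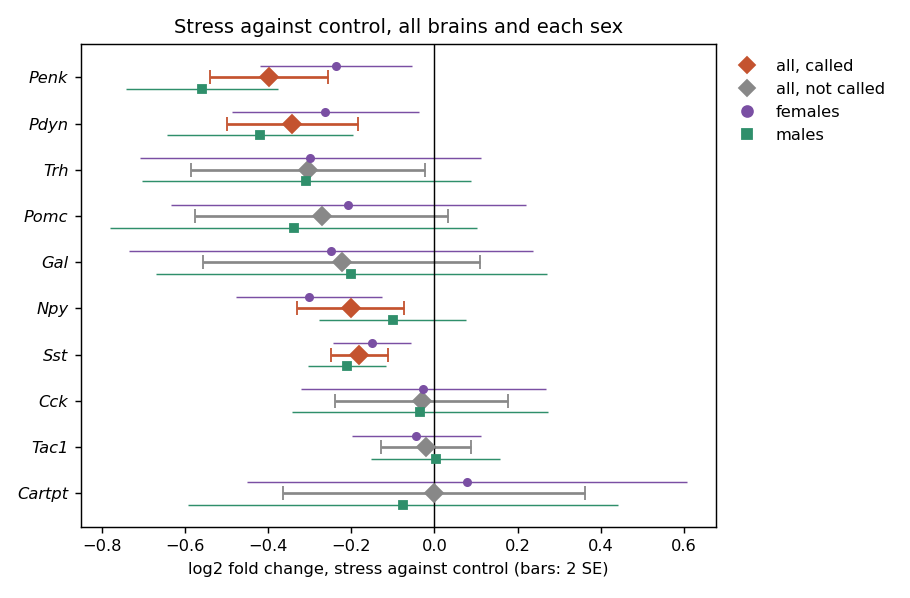
Log2FC of each precursor gene, stress against control, over all 8 brains (diamonds, orange where called) and within females (circles) and males (squares), with bars of 2 SE. All 4 called genes lie left of 0 in both sexes, and the bars of the sexes overlap for every gene.

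The precursors were then read against a hindbrain score of the brains, the mean log2 CPM of 13 hindbrain genes (Hox genes and *Slc6a5*). The spread of the score came mainly from caudal Hox genes, such as *Hoxa5* with 12 to 1098 counts per brain. *Hoxa2* had 100 to 163 counts and *Slc6a5* 283 to 441. The score therefore stands for caudal content and not for the hindbrain as a whole. The score was 3.04, 1.99, 2.29 and 2.24 in control F36, F37, M30 and M31, and 0.84, 3.10, 0.40 and 2.04 in stress F34, F35, M28 and M29. The groups overlapped, with a pair of low brains in the stress group. All 13 genes had a Log2FC below 0 (median -0.22) and none was called. The list held 16 genes, with *Hoxb7*, *Hoxb8* and *Hoxd4* below the filter. The summed level of all 16 was 71.6 to 167 CPM in the control brains and 29.1 to 176 CPM in the stressed brains. With this score in the model beside sex and condition, *Cartpt* had a coefficient of 0.37 log2 units per unit of the score (SE 0.10, unadjusted p = 0.00111, edgeR adjusted p = 0.297) and *Cck* one of 0.18 (SE 0.06, unadjusted p = 0.00377, edgeR adjusted p = 0.511), while 6.95% of all genes had an unadjusted p under 0.05. None of the 10 was called for the score, and 0.118% of all genes were. *Cartpt* stood at 2.84 and 2.65 CPM in F36 and F35, the brains with the highest scores, and at 1.92 and 1.64 CPM in F34 and M28, those with the lowest, but M29 and F37, with nearly the same score, held 2.76 and 1.48 CPM.

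*Penk* (Log2FC -0.38), *Pdyn* (-0.34) and *Sst* (-0.16) were still called lower after stress in this fit, in which 6.26% of all genes were called lower. *Npy* was not (-0.14, edgeR adjusted p = 0.186), nor was it without F34 and M28 (-0.13, edgeR adjusted p = 0.259). *Sst*, *Pdyn* and *Penk* were called in 8 of 8 fits that left out 1 brain, with a Log2FC of -0.20 to -0.17 for *Sst*, -0.39 to -0.29 for *Pdyn* and -0.47 to -0.34 for *Penk*, and *Npy* in 4 of 8.

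**Figure D4:**
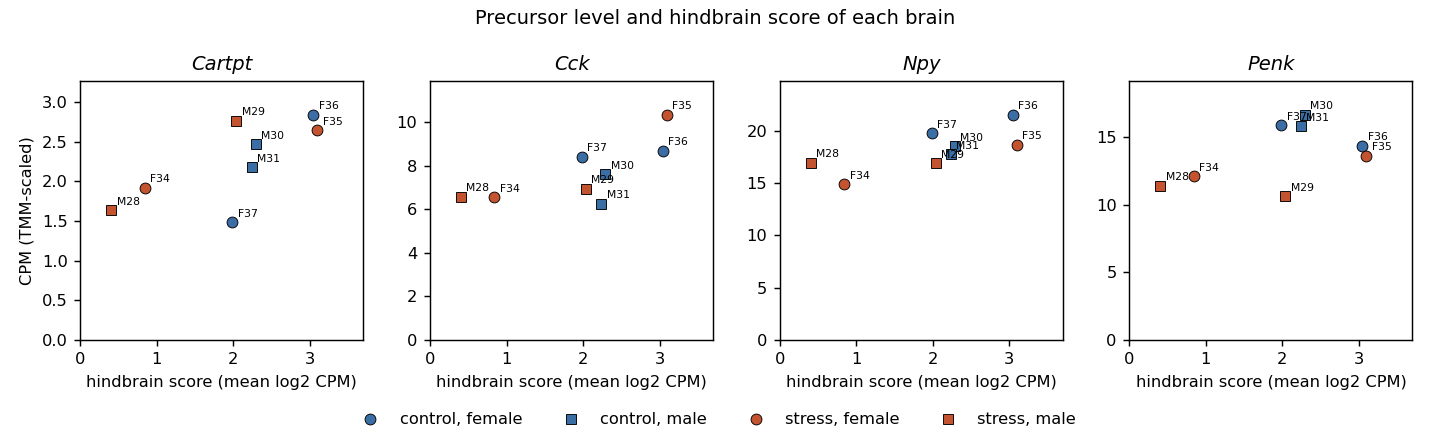
CPM of Cartpt, Cck, Npy and Penk (linear axes from 0) against the hindbrain score of each brain (mean log2 CPM of 13 hindbrain genes), with control brains in blue and stressed brains in orange. F36 and F35, the brains with the highest scores, hold the highest Cck, and in Penk the stressed brains lie below all controls whatever their score.

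**Figure D5:**
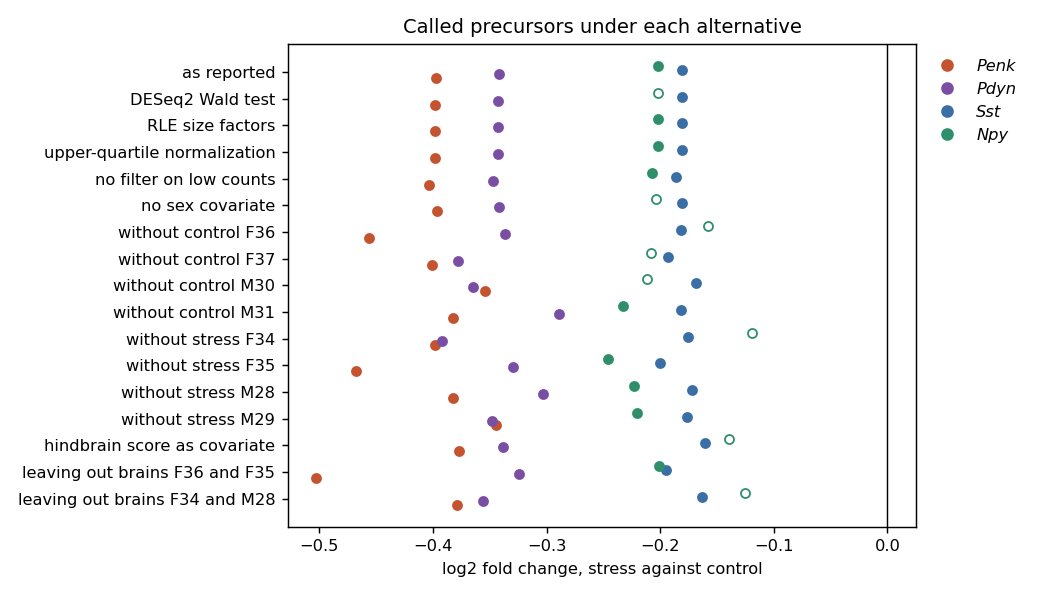
Log2FC of the 4 called genes, stress against control, as reported and under each alternative, filled where the edgeR or DESeq2 adjusted p was under 0.05 and open where it was not. Penk, Pdyn and Sst are filled in every row, and Npy is open in 8 of them.

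For each called precursor, the genes with the most similar pattern were sought by Pearson's r of log2 CPM over the 8 brains, which share their libraries and the difference between the groups. Closest to *Penk* were *Gabrb1*, a GABA-A receptor subunit (r = 0.99), *Dgkk*, a diacylglycerol kinase (0.98), and *Prr18* (0.98). Closest to *Sst* were *Zdhhc14*, a palmitoyltransferase, *Hepacam*, a glial adhesion protein, and *Xbp1*, a factor of the unfolded protein response (0.99 each). Closest to *Pdyn* were *Lgi2* and *Npas2* (0.97 each). Closest to *Npy* were *Aida* (0.97), *Dad1* (0.97) and *Gm13429* (0.96).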

How the data were processed

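Per their methods, the authors mapped trimmed paired reads to mm10 (TopHat2 2.1.1) and summed them over GENCODE exons (featureCounts 1.6.3). They deposited raw counts per gene, without normalization, for 8 brains. Of 54752 identifiers, 54723 had a symbol. The members and lists were chosen with earlier results of these data known. Named genes were all members, called genes of each peptide list (up to 6, by p) with the 2 highest per length, up to 3 called genes per marker list, 3 genes nearest to each called member, and overlapping genes, of which a few are not reported here. Genes were filtered with filterByExpr (minimum count 10), TMM-scaled and tested with edgeR 4.0.16 (R 4.3.3, glmQLFTest) on sex and condition. The study's model also held batch, which is not given for these libraries in the sources used here. DESeq2 1.42.0 was an alternative. SE was derived from the F value. CPM used TMM-scaled totals, log2 CPM a prior count of 2, and TPM the exon length in the tables. Methods were tested on simulated data. Intervals of 2 SE come from the edgeR fit and include the spread between brains. The counting error given for *Pomc* and *Sst* covers counting only. Promoter windows came from RefSeq and were scanned on both strands.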

Additional observations from a re-analysis of the deposited data

Results flagged for a closer look

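*Cck* in stress F35 stood at 10.3 CPM, apart from the other 3 stressed brains at 6.55 to 6.94 CPM. The gap was 0.897 of the range of the group, above Dixon's 95% critical value for 4 samples. Of 20 groups of 4 tested over the 10 precursor genes, 1 passed this value, and chance gives about 1 in 20. F35 also had the highest hindbrain score of the 8 brains, 3.10, and 374 counts of *Hoxb8*. The part of the caudal hindbrain content in its *Cck* level was not tested in this brain alone.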

How the results depend on the processing

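The calls of *Penk*, *Pdyn* and *Sst* held in all 13 alternatives planned for the stress comparison and in 3 chosen after seeing the data (the hindbrain score as a covariate, leaving out F36 and F35, and leaving out F34 and M28), so that 3 to 4 precursors were called throughout. The further peptide genes called, 19 as reported, were 9 with DESeq2, 10 without F34 and M28, and 11 to 21 with 1 brain left out, the lowest counts being 11 without F37, M30 or M29 and 12 without M31. With 1 brain left out, these were 13.6% to 26.2% of the peptide genes tested. The marker genes called, 61 as reported, were 39 with DESeq2, 38 without F34 and M28, and 43 to 70 with 1 brain left out. The calls over all genes moved as well. They were 13.8% of genes as reported, 9.3% with DESeq2, 9.2% without F34 and M28, and 8.8% to 13.1% with 1 brain left out. The direction of 3 uncalled members was not fixed. *Tac1* ran from -0.057 to 0.012 with 1 brain left out and was 0.024 with the hindbrain score and 0.028 without F34 and M28. *Cck* ran from -0.18 to 0.10 and was 0.10 and 0.15 under those settings. *Cartpt* ran from -0.18 to 0.17 and was 0.27 under both, and 0.052 without F36 and F35. No paired analysis was possible because the groups come from separate litters and the labels pair no control brain with a stressed brain. The depth of 33 to 80 counts per brain limits *Pomc*, *Gal*, *Trh* and *Cartpt*, and 1 litter per group limits every comparison.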

Other observations

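Other cell types of the brain were read from marker lists in the same fit. Of 8 endothelial genes, 4 were called lower and 0 higher, with the VEGF receptors *Flt1* (Log2FC -0.41) and *Kdr* (-0.29) and the tight junction gene *Cldn5* (-0.13) among them. Of 12 midbrain genes, 4 were called higher and 0 lower, led by *Tal2* (0.75), *Otx2* (0.19) and *Pax5* (0.24). Cortical projection neuron genes went both ways, 2 lower (such as *Bhlhe22*, -0.23) and 2 higher (such as *Emx1*, 0.25). In the choroid plexus list 3 of 7 genes were called higher, among them *Ttr* (1.91) and *Kcne2* (1.02), and *Ttr* ran from 16 to 191 counts in the control brains and from 19 to 827 in the stressed brains. In the meningeal list 3 of 7 genes were called higher and 1 lower, with *Pdgfra* at -0.31, *Col3a1* at 1.04 and *Col1a1* at 1.59. *Col1a1* had 336 counts in M28, against 34 to 118 in the other stressed brains and 24 to 88 in the control brains, and *Col3a1* had 610 in M28, against 164 to 293 and 133 to 237. Of 8 erythroid genes, *Hba-x* (1.09) and *Hbb-y* (0.84), the embryonic globins, were higher and *Hbb-bs* (-0.14), an adult globin, was lower. None of 8 microglial and 8 sensory ganglion genes tested was called. Of 17 genes that respond to activity or cAMP, *Vgf* and *Junb* (-0.39) were lower and none was higher.

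Within the groups, the precursors were also compared in pairs. After removal of the group means of log2 CPM, Pearson's r was taken over the 8 brains, which share library preparation and depth. It was above 0 for 28 of the 45 pairs and below 0 for 17, with a median of 0.25. Sex was not removed, and the share above 0 among pairs of other genes was not computed. Pearson's r was 0.86 between *Tac1* and *Cck*, 0.82 between *Npy* and *Cck*, 0.79 between *Npy* and *Tac1*, 0.77 between *Sst* and *Cck*, 0.71 between *Sst* and *Tac1* and 0.69 between *Sst* and *Penk*. It was -0.70 between *Pomc* and *Gal*, which rest on 33 to 60 counts per brain, -0.50 between *Npy* and *Pdyn* and -0.08 between *Pdyn* and *Penk*.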
